A study of Drosophila melanogaster with 4 samples.

Results

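Isolated narrow autosomal binding sites of the Drosophila protein CG16778 are peaks under 1000 bp wide, on arm 2L, 2R, 3L or 3R or on chromosome 4, with no other peak of any width within 20 kb on either side. There were 336 of them among the 4164 peaks of the deposited list (8.07%). They made up 9.58% of the 3506 autosomal peaks and 10.3% of the 3272 autosomal peaks under 1000 bp. The members were thus chosen by values of the list itself, their width and their spacing. Width, gap and score all come from the same peak call, so they are described here and not tested. Peaks on X, on unplaced sequence, on heterochromatin sequence and on the mitochondrion were left out.

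The series holds 2 libraries of DNA immunoprecipitated with a rabbit polyclonal antibody against part of CG16778 (replicates 1 and 2) and 2 libraries of input DNA (replicates 1 and 2). All 4 came from whole embryos of the Y cn bw sp strain, sex unknown, with a labelled stage of 0 to 8 h, whereas the protocol text names an 8 to 16 h laying. The labels give all of them the alleles y[1] and oc[R3.2]. On the second chromosome they give Gr22b[1], Gr22d[1] and cn[1], together with CG33964[R4.2], bw[1] and sp[1]. To these they add LysC[1] and lab[R4.2], as well as MstProx[1], GstD5[1] and Rh6[1]. Whole embryos mix all cell types, so the list does not tell in which cells a site was bound. The authors deposited 1 list for the series, so no value below has a replicate error, and how deeply the libraries were read is unknown.

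CG16778, listed under the symbol lov (jim lovell) in the current gene table, encodes a BTB/POZ-domain protein. The BTB/POZ domain lets proteins pair with each other, and many Drosophila members of the family are regulators that bind DNA in the nucleus. Peaks in ChIP-seq are stretches where immunoprecipitated fragments pile up above a background estimated from the control. Peaks of many embryonic regulators lie close together in regulatory regions, so a peak far from every other peak is a site at which the protein was found without a detected neighbour. The series asks which parts of the genome the protein occupies in embryos. The coordinates are those of FlyBase release 5. The genes and the sequence at these sites were not analysed here.

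Isolated narrow peaks were like the other narrow autosomal peaks in score and width. Each peak carries 1 score from the authors' caller, with no unit given, and a higher score is read here as stronger evidence of enrichment. The 336 isolated peaks had a median score of 11.9 (quartiles 9.69 and 16.0, range 6.42 to 156.72), against 11.9 (quartiles 9.75 and 15.2, range 6.38 to 81.09) for the 2936 other narrow autosomal peaks. The difference of the medians, isolated minus other, was 0.065. The 234 autosomal peaks of 1000 bp or more had a median score of 24.4. Lack of a neighbour within 20 kb thus went with almost no shift in the median score, while width did go with score.

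The upper end of the scores differed slightly. A score above 20 was reached by 49 of the 336 isolated peaks, or 14.6% (exact 95% interval 11.0 to 18.8%, counting error only), against 331 of the 2936 other narrow peaks, or 11.3% (10.2 to 12.5%). A score above 30 was reached by 15 isolated peaks (4.46%, 2.52 to 7.26%), against 90 other narrow peaks (3.07%, 2.47 to 3.75%). A score above 50 was reached by 5 isolated peaks (1.49%, 0.485 to 3.44%), against 18 others (0.613%, 0.364 to 0.967%). The intervals of the pairs overlap at each of these scores. The 1669 narrow peaks in groups of 3 or more, joined over gaps of up to 5 kb, gave 10.9% above 20 and 0.659% above 50.

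**Figure D1:**
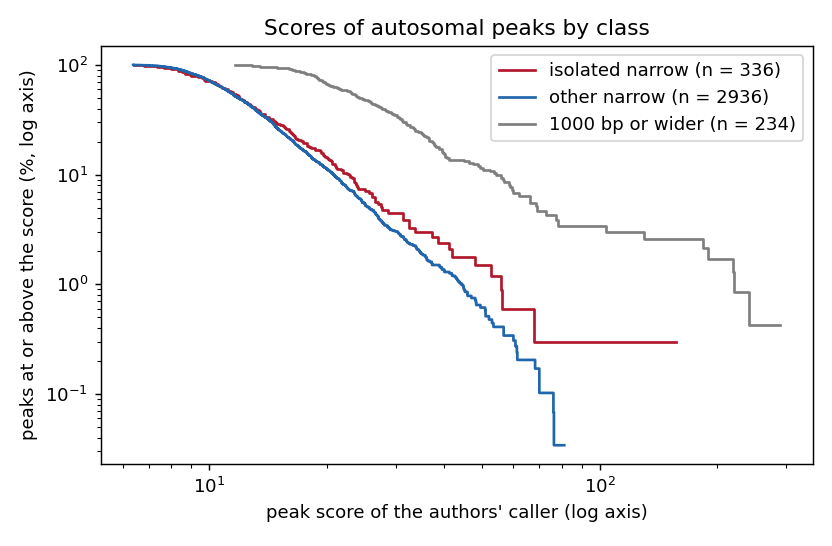
Share of autosomal peaks (y axis, percent, log axis) at or above each score of the authors' caller (x axis, log axis), for isolated narrow peaks, other narrow peaks and peaks of 1000 bp or more. The curves of the isolated and the other narrow peaks lie together around their medians of 11.9, and the red curve ends at 156.72 against 81.09 for the blue one.

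The isolated peak with the highest score stood far from the rest. It lay on 2L at 1556662 to 1557351, had a width of 690 bp and a score of 156.72, 13.1 times the isolated median and 2.31 times the next isolated score. It ranked 7 in the whole list and had no other peak within 50 kb. Its neighbours lay 93290 bp below it, with a score of 9.44, and 53674 bp above it, with a score of 11.15. This highest-scoring isolated peak was thus flanked on both sides by peaks below the median score of the list.

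The next isolated peak lay on 3R at 10187662 to 10188162, was 501 bp wide and scored 67.84, with gaps of 45175 and 117639 bp. It was followed by a site on 3R at 3997396 to 3998138, with a score of 56.05, that lay 20681 bp from its nearest neighbour, just beyond the gap limit. The fourth, on 3L at 8858146 to 8858531, reached 55.73 at a width of only 386 bp. These peaks were called from stretches of unlike width, and the narrowest of them was close to the median width of 347.5 bp.

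The fifth, on 2L at 14668852 to 14669297, reached 52.72 and had the widest peak-free stretch of the 10 highest-scoring isolated peaks, with gaps of 69064 and 370336 bp. On 2L at 8576501 to 8577145 the score was 47.94, and the neighbour 98310 bp above scored 39.4. On 2L at 6610949 to 6611757 lay a peak with a score of 41.72. This one is the widest of the 10, at 809 bp. The remaining 3 scored 41.13 (2L, 18897944 to 18898541), 38.43 (2R, 12671283 to 12671988) and 37.11 (2L, 20874525 to 20875215). Of these 10 peaks, 6 lay on 2L, 2 on 3R, 1 on 2R and 1 on 3L. All 10 scored above the peaks on either side, whereas 106 of all 336 isolated peaks did so and 112 scored below both. Among the 100 highest scores of the whole list, 8 belonged to isolated narrow peaks.

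On each arm the highest isolated scores were of different size. After the 38.43 peak, those of 2R were 32.52 (2698585 to 2699349) and 27.56 (5171684 to 5172378). On 3L the 55.73 peak was followed by scores of 33.54 (791254 to 792003) and 32.52 (18665543 to 18666160). On 3R the third score was 28.63 (17681020 to 17681976). Chromosome 4, a short and largely heterochromatic autosome, had isolated peaks of 16.66 (63462 to 63891), 13.87 (684606 to 685170) and 10.56 (646891 to 647177), none above 20. The median isolated score was nonetheless close on all arms, 12.1 on 2L, 12.2 on 2R, 12.2 on 3L, 11.5 on 3R and 12.2 on 4.

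At the low end, the lowest isolated score was 6.42, on 2R at 10220115 to 10220345, followed by 6.72 on 2L at 6204570 to 6204864 and on 3R at 16843628 to 16843852. Isolated peaks with a score of 10 or less were 95 of the 336, since 241 (71.7%) scored above 10, against 72.0% of the other narrow peaks.

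Isolated peaks were mostly short. Their median width was 347.5 bp (quartiles 259.75 and 518 bp, range 201 to 979 bp), against a median of 343 bp (quartiles 254 and 499 bp) for the other narrow peaks. The narrowest width in the list, 201 bp, was that of 9 isolated peaks (2.68%) and of 71 other narrow peaks (2.42%). The first of these 9 were the peak at the start of the 2L list (21040 to 21240, score 9.73) and 2R peaks at 9917882 to 9918082 (score 7.66) and at 16215203 to 16215403 (score 12.73). The widest were peaks on 2R at 2636890 to 2637868 (979 bp, score 17.38), on 3R at 1833277 to 1834247 (971 bp, score 27.08) and on 3R at 17681020 to 17681976 (957 bp, score 28.63).

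Wider isolated peaks had higher scores. Across the 336 peaks, Spearman's rho of width and score was 0.672 and Pearson's r was 0.452, against 0.598 and 0.555 across the other narrow peaks. Both measures of a peak come from the same pileup, so these values only describe the list. Of the 120 isolated peaks up to 299 bp wide, none scored above 20 and the highest score was 18.23. The median score was 9.84 in these peaks, 11.9 in the 79 of 300 to 399 bp, 14.1 in the 88 of 400 to 599 bp and 20.6 in the 49 of 600 to 999 bp. The same classes of other narrow peaks had median scores of 10.1, 11.6, 13.6 and 17.7. In the widest class 51.0% of the isolated peaks scored above 20, against 40.2% of the others, and in the narrowest class 0%, against 0.78%. For the 120 isolated peaks of the narrowest class, a count of 0 allows a share of up to 2.5%, taking 3 counts as the limit. The relation of score to width was thus steeper in the medians of the isolated peaks, a difference that was not tested.

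**Figure D2:**
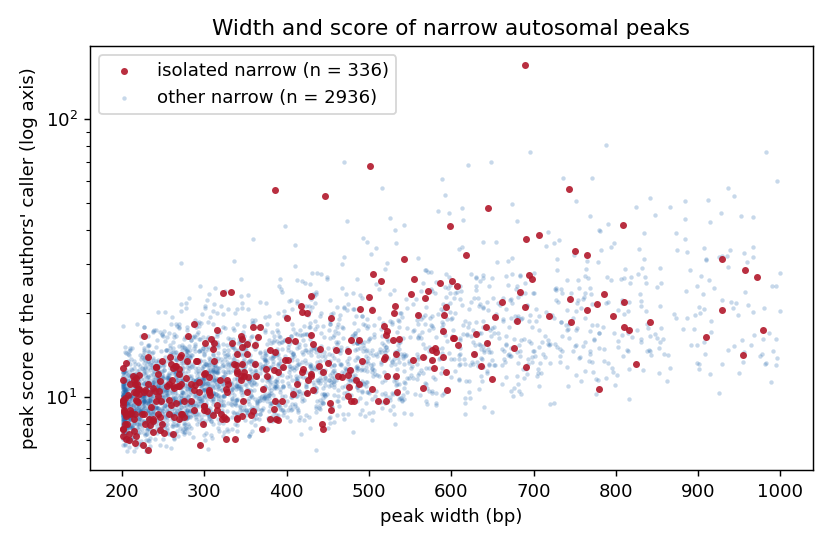
Peak width in bp (x axis) against the score of the authors' caller (y axis, log axis) for the 336 isolated and the 2936 other narrow autosomal peaks, 1 point per peak. Isolated peaks span the same widths as the others, and the peak of 690 bp with a score of 156.72 lies above every other narrow peak.

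The space around isolated peaks varied widely. The median gap to the nearest other peak was 36.3 kb (quartiles 26.4 and 52.7 kb), and the extremes were 20009 and 487591 bp. Of the 336 peaks, 7 were the first or last of their arm in the list and had a neighbour on 1 side only. For the other 329, the longer of the 2 gaps had a median of 86.4 kb (quartiles 55.7 and 139 kb) and reached 506.222 kb. The longer gap was 1.98 times the shorter at the median. Both gaps exceeded 50 kb around 92 of these peaks (28.0%) and 100 kb around 21 (6.38%). The sizes of the 2 gaps had almost no rank relation (Spearman's rho 0.0311 over 329 peaks). From peak to peak the whole stretch without another call had a median of 129.7 kb.

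**Figure D3:**
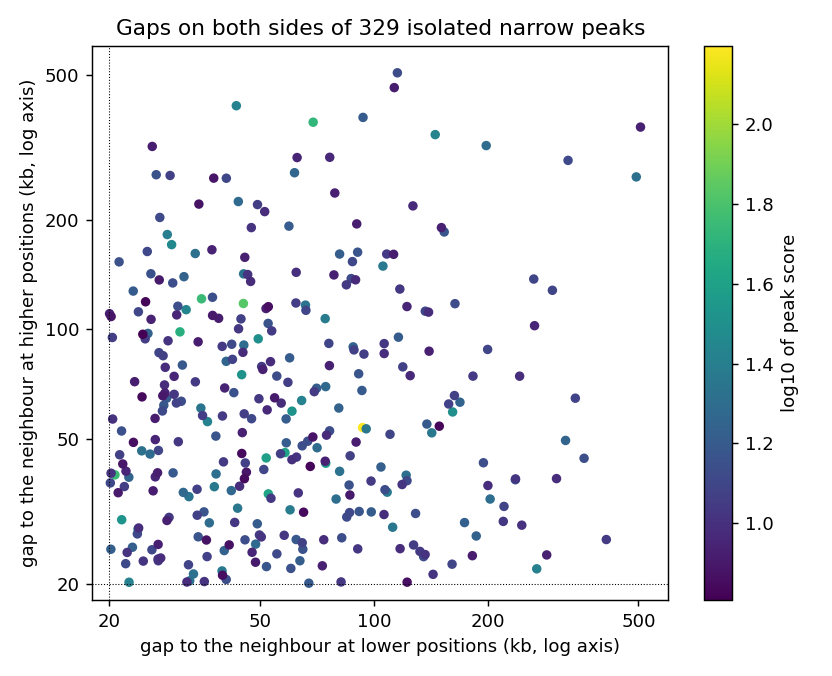
Gap to the neighbouring peak at lower positions (x axis, kb, log axis) and at higher positions (y axis, kb, log axis) for the 329 isolated narrow peaks with a neighbour on both sides, coloured by the log10 of the score. Dotted lines mark the limit of 20 kb, and high scores appear at short as well as at long gaps.

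The 5 most isolated sites had scores from 8.65 to 20.57, on both sides of the isolated median of 11.9. The largest nearest gap, 487591 bp, belonged to the first peak of 2R (18715 to 19108, score 9.69), which had a neighbour on 1 side. Next came the 2R peak at 1181938 to 1182164, which scored 8.65 at a width of 227 bp and lay 506222 and 359118 bp from its neighbours. On 3L at 10217947 to 10218292 the score was 13.1, with gaps of 325761 and 290870 bp. On 3R at 22362124 to 22362888 it was 20.57, with gaps of 493363 and 262021 bp, and on 3L at 4825274 to 4826070 it was 19.5, with gaps of 197959 and 319431 bp. The highest-scoring of the 5 ranked 44 among the isolated peaks.

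Score had little relation to the degree of isolation. Spearman's rho of nearest gap and score was 0.0462 over the 336 peaks, and that of nearest gap and width was 0.0671. The median score was 11.5 in the 128 peaks with a nearest gap up to 30 kb, 12.8 in the 112 from 30 to 50 kb, 12.1 in the 71 from 50 to 100 kb and 11.9 in the 25 beyond 100 kb. Scores above 20 were found in 12, 25, 9 and 3 of these peaks, which is 9.38%, 22.3%, 12.7% and 12.0%. The second class thus held the largest share, and the shares followed no steady order.

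The peaks next to isolated ones were like other autosomal peaks in width and score. Of the 665 flanking positions counted over both sides, 41 (6.17%) held a peak of 1000 bp or more, against 6.67% of all autosomal peaks. The flanking peaks had a median score of 12.1, against 12.3 for all autosomal peaks. The nearest neighbour was itself an isolated narrow peak for 99 of the 336 (29.5%), while 9.58% of all autosomal peaks are isolated and narrow. It belonged to a group of 3 or more peaks for 79 (23.5%), against 50.9% of all autosomal peaks. By this count the neighbours were more often isolated and less often grouped than autosomal peaks at large, which was not tested, since the rule on gaps bears on which peaks can be neighbours. It scored higher than the isolated peak in 175 cases, lower in 156 and the same in 5. Spearman's rho between the scores of an isolated peak and its nearest neighbour was 0.0603.

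Within 50 kb an isolated peak had a median of 2 other peaks, against 7 for the other narrow peaks, a difference that the rule produces in part. Around 96 isolated peaks there was none within 50 kb, and around 25 none within 100 kb, whereas the most crowded isolated peak had 15 within 50 kb.

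Some isolated peaks followed each other along an arm with no other peak between them. The 336 peaks formed 161 single positions, 49 consecutive pairs, 16 runs of 3 and 7 runs of 4 or more. The longest run held 5 peaks on 2L from 15113564 to 15499883 (386.32 kb), with scores from 8.52 to 14.28. A run of 4 on 2R from 559911 to 1541802 covered 981.892 kb, with scores from 7.23 to 13.89. A further run of 4 followed on 2R from 1648611 to 1923854, with scores from 7.47 to 21.03. The shortest run of 4 lay on 3R from 3997396 to 4095870 (98.475 kb) and began with the peak that scored 56.05, while the lowest score in it was 7.23. The first 2 of these runs held no score above the upper quartile of the isolated peaks, 16.0, whereas the run on 3R held both high and low scores.

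Isolated peaks lay in like numbers on the long autosome arms. There were 80 on 2L, 82 on 2R, 76 on 3L, 94 on 3R and 4 on chromosome 4. They were 11.2% of the narrow peaks on 2L (exact 95% interval 9.0 to 13.8%), 10.4% on 2R (8.36 to 12.8%), 9.43% on 3L (7.50 to 11.7%) and 10.0% on 3R (8.15 to 12.1%). On chromosome 4 they were 4 of 24, or 16.7% (4.74 to 37.4%). All of these intervals overlap. In full bins of 1 Mb the mean number of isolated peaks was 3.5 ± 1.74 on 2L (SD, n = 22 bins), 3.81 ± 1.89 on 2R (n = 21), 3.26 ± 1.74 on 3L (n = 23) and 3.41 ± 2.08 on 3R (n = 27). The arm means differed by less than 1 SD between bins, which is the spread of single bins and not the error of a mean.

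The number of isolated peaks in a bin had little to do with the number of all peaks there. Over the 93 bins Pearson's r was 0.0553 and Spearman's rho was 0.0503, and a bin's count of all peaks includes its isolated ones. The 31 bins with the fewest peaks (5 to 30 each) held 3.58 ± 1.89 isolated peaks, the middle 31 held 3.13 ± 1.75 and the 31 densest (43 to 80 peaks each) held 3.74 ± 1.93 (mean ± SD over bins). As a share of all peaks these were 16.0%, 8.58% and 7.21%. The variance of the bin counts was 0.99 times their mean for isolated peaks and 5.08 times for all peaks. The rule on gaps bears on how many peaks of a bin can be isolated, so it shapes the isolated counts, shares and variance in part. These values describe the list and were not tested.

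Only 5 of the 93 bins held no isolated peak. The largest count was 9 of 25 peaks, on 2R from 20000001 to 21000000, at the telomere end of that arm. The next count, 7, was shared by 4 bins, of which the 2L bin from 15000001 to 16000000 had the fewest peaks in all, 27. The bin with the most peaks of all, 80 on 2L from 21000001 to 22000000, still held 6 isolated ones.

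**Figure D4:**
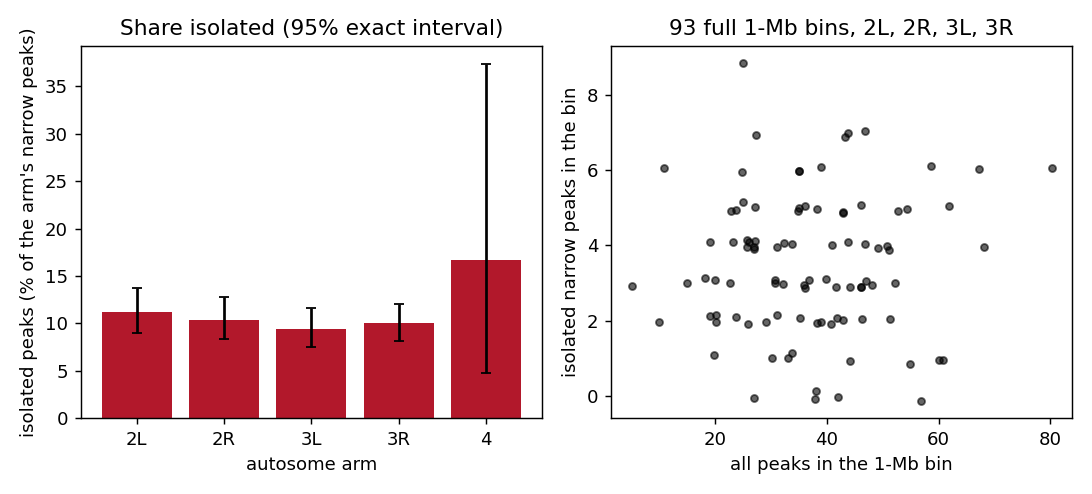
Left, isolated peaks as a percentage of the narrow peaks of each autosome arm, with exact 95% intervals. Right, isolated narrow peaks (y axis) against all peaks (x axis) in 93 full bins of 1 Mb on 2L, 2R, 3L and 3R, with small random offsets so that points do not cover each other. The bars of the long arms lie between 9.43 and 11.2%, and the points show little slope (r = 0.0553).

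The end of 2R next to the centromere was an exception, singled out after its values had been seen. In the 2 Mb of the list nearest the centromere, 9 of 16 narrow peaks on 2R were isolated (56.2%), against 73 of 772 (9.46%) on the rest of that arm. The corresponding shares were 9 of 96 (9.38%), against 71 of 617 (11.5%), on 2L. They were 4 of 51 (7.84%), against 72 of 755 (9.54%), on 3L and 13 of 104 (12.5%), against 81 of 837 (9.68%), on 3R. Together with few peaks, the 2R end thus held mostly isolated ones, among them both runs of 4 peaks on 2R named above. Where peaks are few, more of them meet the rule on gaps, so the rule produces this share in part. The difference was not tested.

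A larger difference from the other narrow peaks lay in the fine values of the scores. Many scores recur exactly in the list. Many of these, though not all, lie on a ladder. Its steps match −log10 of the Poisson upper tail at whole fragment counts over a single background of 35.4 fragments. A MACS caller gives such scores where it sets a pileup against the genome-wide background and not against a higher local control. This reading, like that of the scores as −log10 p-values, rests on the values alone and was not tested. A score counted as on the ladder if it was at most 20 and lay within 0.0075 of a step. On this measure 120 of the 336 isolated peaks were on the ladder, or 35.7% (exact 95% interval 30.6 to 41.1%), against 367 of the 2936 other narrow peaks, or 12.5% (11.3 to 13.8%). Among the narrow peaks in groups of 3 or more it was 171 of 1669, or 10.2% (8.83 to 11.8%). The share was not particular to isolated peaks, since 396 of the 658 peaks off the autosome arms (60.2%) and 890 of all 4164 (21.4%) were on the ladder. With the steps shifted midway, the shares were 3.27% of the isolated and 3.95% of the other narrow peaks. The commonest single score of isolated peaks, 9.69, was carried by 10 of them and by 46 peaks in the whole list, and it lay on a step. The score 12.9, carried by 3 isolated peaks and by 13 peaks in the whole list, lay off the ladder.

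The share on the ladder was larger beyond the gap limit of 20 kb than within it, though not in a steady order. It was 12.8% (11.0 to 14.8%) of the narrow peaks with a neighbour within 500 bp, 11.2% (9.41 to 13.2%) at 500 to 5000 bp and 14.4% (11.5 to 17.7%) at 5000 to 20000 bp. Among isolated peaks it was 32.0% (24.1 to 40.9%) at 20 to 30 kb, 28.6% (20.4 to 37.9%) at 30 to 50 kb and 42.3% (30.6 to 54.6%) at 50 to 100 kb. Beyond 100 kb it was 17 of 25, or 68.0% (46.5 to 85.1%). Scores above 20 cannot be on the ladder, and they made up 9.38%, 22.3%, 12.7% and 12.0% of these isolated classes in order. The 3 classes under 20 kb thus lay close together and every class above it was higher than all of them, with no test made, since gap and score come from the same call.

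**Figure D5:**
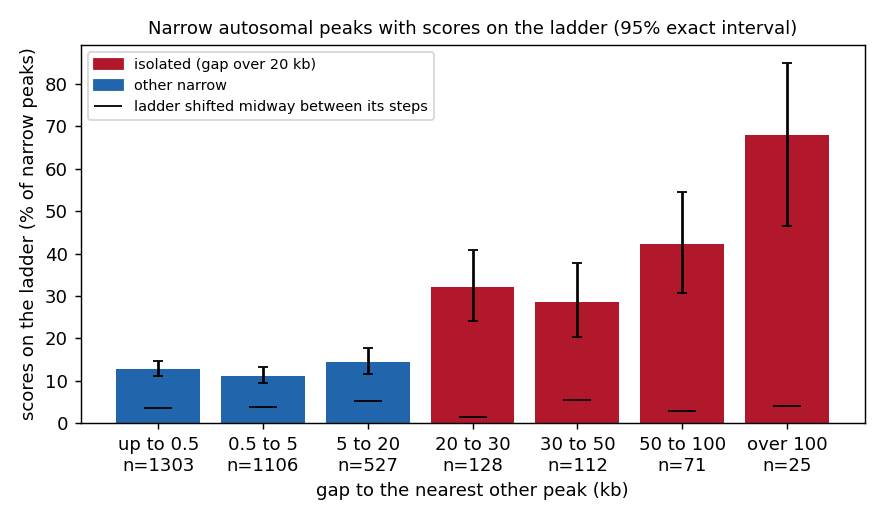
Percentage of narrow autosomal peaks with a score on the ladder (y axis) by the gap to the nearest other peak in kb (x axis), with exact 95% intervals and the number of peaks under each bar. Isolated peaks (red) range from 28.6 to 68.0%, other narrow peaks (blue) from 11.2 to 14.4%, and black marks give the share on a ladder shifted midway between its steps.

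The difference in the ladder share was present at like scores, at like widths and on each long arm. Between scores of 6 and 10 the share was 52.6% of 95 isolated peaks, against 16.0% of 820 others. Between 10 and 13 it was 37.9% of 103 isolated peaks, against 13.5% of 930 others, and between 13 and 17 it was 35.3% of 68, against 12.7% of 662. At widths up to 299 bp it was 43.3% of the isolated peaks, against 14.5% of the others, and at 600 to 999 bp it was 12.2% (4.63 to 24.8%), against 5.98% (4.04 to 8.47%), where the intervals overlap. By arm it was 35.0% of the isolated peaks, against 12.0% of the others, on 2L. It was 40.2%, against 10.2%, on 2R, then 35.5%, against 14.0%, on 3L and 34.0%, against 13.6%, on 3R. On chromosome 4 none of the 4 isolated peaks was on the ladder, against 2 of 20 others, too few to read. The 120 isolated peaks on the ladder had a median score of 11.0 and a median nearest gap of 41.2 kb, against 12.9 and 34.1 kb for the 216 off it. Of these 216, 49 scored above 20 and were off the ladder by definition, because it was followed only up to 20. The difference in the median score is thus set in part by that limit. For the same reason none of the 10 highest-scoring isolated peaks could be on the ladder.

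The limits of the rule cut through a continuous range. The isolated peaks nearest the gap limit lay 20009 bp (3L, 22281941 to 22282261, score 8.35) and 20049 bp (3R, 26714100 to 26714742, score 15.69) from another peak. The narrow peaks just outside it lay 19992 bp (2R, 9297350 to 9297652, score 13.07) and 19972 bp (3R, 12012814 to 12013037, score 12.7) away. At the width limit, the widest isolated peaks of 979 and 971 bp were followed by isolated peaks of 1004 bp (3R, 24459737 to 24460740, score 19.62) and 1019 bp (2L, 10056960 to 10057978, score 21.53). In all, 33 autosomal peaks of 1000 bp or more met the spacing rule. They were 14.1% of the 234 wide autosomal peaks, against 10.3% isolated among the narrow ones.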

How the data were processed

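ChIP-seq was done on embryos with 2 ChIP and 2 input libraries. Per the file headers, the deposited peak list uses FlyBase release 5, and its source column names MACS. BWA, MACS2, CASAVA (1.7.0.2, 1.7.0.3) and the build BDGP5 are listed in the submitters' processing notes. Thresholds, the use of input and the pooling of replicates are not stated there. The authors deposited 1 score per peak, without a unit, and peak starts and ends.

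Gaps were counted as the bases between the edges of neighbouring peaks, and a peak at an arm's end was judged on its 1 neighbour. Intervals are exact Clopper-Pearson 95% intervals. The score ladder was fitted to all scores up to 20 over backgrounds from 5 to 80, with functions tested on simulated data. The background found took in 25.3% of these scores, and the best one more than 0.5 away took in 10.4%. Peaks named are the 10 highest scores, the 3 highest per arm, the 5 largest gaps, the 3 widest, narrowest and lowest, and those at the limits. Members and lists were chosen with earlier results of these data known. Groups, runs, classes and the 2-Mb window were chosen after values were seen. Only a gene table of release 6 was at hand, used for the target's name, so planned sequence words and nearest genes were not run. Python 3.11.15, numpy 2.4.6, pandas 2.3.3, scipy 1.17.1 and matplotlib 3.10.9 were used.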

Additional observations from a re-analysis of the deposited data

How the results depend on the processing

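Of 67 comparisons with an alternative setting, 63 stayed within 1.5 times for counts, 1 SD over single peaks or bins for medians and densities, or the 95% interval for the ladder share. The SD over single peaks or bins is a wide limit for a median or a density. Leaving out 1 arm, with at most 94 of the 336 isolated peaks, could not change the count by 1.5 times. The number 63 thus does not show that the counts, medians or densities are stable. With only peaks above the median score of the list, 369 peaks were isolated and narrow, with a median score of 16.0 against 11.9 and a median width of 488 against 347.5 bp. The median nearest gap of 36263.5 bp was 23706.5 bp under a gap limit of 10000 bp and 74974.5 bp under one of 50000 bp. Among the 4 that moved, a changed gap limit or tolerance fixes the direction of the change but not its size. The limit to scores up to 15 also leaves out scores above 20, which could not be on the ladder. A gap limit of 10000 bp gave 574 isolated narrow peaks and a limit of 50000 bp gave 96, against 336. The ladder share of 35.7% was 28.6% at a tolerance of 0.005 and 43.1% among scores up to 15, so its value depends on both choices. Leaving out each arm in turn gave a median score of 11.9 to 12.2 and a ladder share of 34.3 to 36.4%. No paired analysis was possible because values exist for the whole list only, which also bars leaving out a replicate. The alternative for sequence words was not run. Sites under the caller's threshold cannot be judged, so isolation means only that no neighbour was called.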
